A study of Mus musculus with 9 samples.

Results

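AMP-activated protein kinase (AMPK) and the kinases that switch it on were followed at the level of mRNA in J1 mouse embryonic stem cells. The 10 genes were chosen by name. They are the catalytic subunits Prkaa1 and Prkaa2, the scaffold subunits Prkab1 and Prkab2, the nucleotide-binding subunits Prkag1, Prkag2 and Prkag3, the upstream kinases Stk11 (LKB1) and Camkk2, and Cab39, which encodes the LKB1 partner MO25α. Of the 55681 non-control probes on the array, 12 mapped to these genes, 2 each to Cab39 and Camkk2 and 1 to each of the others. Of 16089 genes with a tested probe, these are 10. All 12 probes were well above background on all 9 arrays and none was saturated, so every member entered the tests among 37739 probes.

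AMPK is a heterotrimer of an α, a β and a γ subunit that senses a fall in cellular energy. AMP or ADP bound to the γ subunit favours phosphorylation of a threonine in the α subunit, by LKB1 in a complex with a STRAD pseudokinase and MO25 or, when calcium rises, by CAMKK2. Active AMPK switches on catabolic pathways and autophagy and restrains lipid and protein synthesis, the last through mTORC1. Arrays measure the mRNA of these genes, not the phosphorylation that sets the kinase's activity.

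The 9 single-colour arrays fell into 3 groups of 3 samples, treated for 24 h with 1 mM AICAR, with 3 µM CHIR99021 or with the solvent DMSO. AICAR is a nucleoside that cells phosphorylate to ZMP, an AMP mimic that activates AMPK, and CHIR99021 inhibits the kinase GSK3 and so stabilises β-catenin. All groups were cells of the 129S4/SvJae strain, adapted to gelatin without feeder cells, in medium with serum replacement and LIF, the leukaemia inhibitory factor that holds such cells in self-renewal, at 1000 U/mL. Nothing in the labels says that the numbered samples were separate cultures, so the p-values refer to variation among these samples alone, part or all of which may be technical, and they describe 1 cell line.

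Levels below are scaled log2 signals, the log2 of the processed signal minus the 75th percentile of its array, so 0 is that percentile. Each array had 62.8% to 67.2% of its spots well above background, and arrays correlated at 0.995 to 0.996 within groups and at 0.971 to 0.982 between groups across probes. Each slide carried the arrays of 1 treatment, so slide and treatment cannot be told apart. All 10 embryonic stem cell markers, among them Pou5f1, Sox2 and Nanog, were well above background on all arrays. Their summed linear level, in units of the array's 75th percentile, was 627 to 671 with AICAR, 606 to 635 with CHIR99021 and 553 to 574 with DMSO. Dppa5a, singled out after its values were seen, was the brightest of them, at scaled log2 means of 8.44, 8.32 and 8.39 in that order. It was called in neither comparison with DMSO. Of the 10, 7 were higher and 1, Zfp42, lower with AICAR than with DMSO. With CHIR99021, 5 were higher and 2, Fgf4 and Tdgf1, lower. Of all 16089 genes with a tested probe, 31.5% were called higher and 32.7% lower with AICAR than with DMSO. With CHIR99021, 28.2% of all genes were called higher and 24.3% lower. The counts for the other marker lists below stand beside the same shares. The sum for 10 fibroblast markers was 3.38 to 4.03 with AICAR, 2.33 to 2.47 with CHIR99021 and 2.15 to 2.3 with DMSO, and Fap, Lum and Postn were above background on no array. That list went both ways with AICAR, 3 of 7 tested members higher and 3 lower, with Pdgfrb higher than with DMSO by 2.32 ± 0.07 and Thy1 by 0.91 ± 0.09 and Col1a2 lower (-1.29 ± 0.06). With CHIR99021, 2 of the 7 were higher and 2 lower, with Pdgfrb higher by 2.13 ± 0.07 and Col1a2 lower (-0.48 ± 0.06). For 8 primitive endoderm markers the sum was 14.4 to 15.9, 15 to 15.9 and 11.4 to 12.5 in the same order. Lama1, singled out after its values were seen, made up most of that sum, at scaled log2 means of 3.83, 3.84 and 3.47, and with AICAR 5 of the 8 were higher than with DMSO and 3 lower. With CHIR99021, 4 of the 8 were higher and 2 lower. For 10 neural and muscle markers the sum was 4.41 to 4.85, 4.36 to 4.51 and 6.53 to 6.58, with Ckm and Myog above background on no array. With AICAR, 1 of 7 tested members was higher and 5 lower, and with CHIR99021 1 was higher and 6 lower. These sums moved with treatment, and their part in the results below was not tested. In bulk RNA, fewer cells of a type and less RNA per cell cannot be told apart. The β-catenin target Axin2 was higher with CHIR99021 than with DMSO by 5.12 ± 0.09 on the log2 scale (SE, limma, adjusted p = 5.29e-08). With AICAR it was higher than with DMSO by 0.38 ± 0.09 (limma, adjusted p = 0.00799).

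The catalytic subunit α2 is encoded by Prkaa2, which had the largest change of any subunit gene between AICAR and DMSO. Prkaa2 had scaled log2 levels of 1.02, 0.88 and 1.01 in AICAR cells, -0.03, 0.23 and 0.27 in CHIR99021 cells and -0.36, -0.34 and -0.32 in DMSO cells. The 3 groups did not overlap, with AICAR highest and DMSO lowest. With AICAR it was 2.48-fold higher than with DMSO, a log2 change of 1.31 ± 0.08 (SE, n = 3 each, adjusted p = 7.66e-06). Adjusted p-values here and below are limma's with Benjamini-Hochberg adjustment over all probes tested, and a gene is called changed under 0.05. With CHIR99021 it rose by 0.50 ± 0.08 over DMSO (adjusted p = 0.00188), 1.42-fold. AICAR cells stood 0.81 ± 0.08 above CHIR99021 cells (adjusted p = 8.71e-05). Among 16089 genes with a tested probe, 7.28% changed by more than Prkaa2 between AICAR and DMSO.

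Prkaa1 (α1) moved little. Its levels were 1.84, 1.82 and 1.80 with AICAR, 1.95, 1.93 and 2.03 with CHIR99021 and 1.56, 1.74 and 1.69 with DMSO. These groups did not overlap either, but only the CHIR99021 group was called, at 0.31 ± 0.06 above DMSO (adjusted p = 0.00395), and that call was lost with spike-in scaling (adjusted p = 0.103). The AICAR value lay 0.16 ± 0.06 above DMSO with a 95% interval of 0.02 to 0.30 and missed the threshold (adjusted p = 0.0523). It was called under 5 of 20 alternative settings, among them without DMSO replicate 2, where it was 0.20 (adjusted p = 0.0419). Between AICAR and CHIR99021 the difference was -0.15 ± 0.06 (adjusted p = 0.0642), and it was called without DMSO replicate 1 (adjusted p = 0.0411).

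Subtracting one subunit's log2 level from the other's on the same array removes the array's scaling and shows how unequally the pair responded. Prkaa2 minus Prkaa1 was -0.82, -0.94 and -0.80 with AICAR, -1.98, -1.70 and -1.76 with CHIR99021 and -1.92, -2.08 and -2.02 with DMSO. The offset of each value mixes the response of the probes with the abundance of the transcripts. It does not give the relative abundance of the subunits, so only shifts between groups can be read. The AICAR arrays stood apart from the other 6. The shift was 1.15 ± 0.07 between AICAR and DMSO (SE, n = 3 each), 0.19 ± 0.10 between CHIR99021 and DMSO and 0.96 ± 0.10 between AICAR and CHIR99021. In two-sided exact permutation tests, p was 0.1, 0.2 and 0.1, and 0.1 is the smallest value that 3 arrays against 3 allow, so no such test could pass 0.05. Adjusted over the 12 subunit differences examined, the values were 0.15, 0.218 and 0.15.

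The sequences just upstream of the starts of the 2 catalytic genes are shown because this pair had the largest within-array shift between AICAR and DMSO of the 4 pairs. Each holds the 250 bases before the start, from RefSeq on GRCm38.p6 and read along the gene, with capitals for matches on either strand to the motifs searched. These were the TCF/LEF cores CTTTGA and CTTTGT, the E-box CACGTG, the GC box GGGCGG and the CCAAT box. The Prkaa2 stretch is chr4:105109899-105110148 on the minus strand and the Prkaa1 stretch is chr15:5143611-5143860 on the plus strand.
Prkaa2: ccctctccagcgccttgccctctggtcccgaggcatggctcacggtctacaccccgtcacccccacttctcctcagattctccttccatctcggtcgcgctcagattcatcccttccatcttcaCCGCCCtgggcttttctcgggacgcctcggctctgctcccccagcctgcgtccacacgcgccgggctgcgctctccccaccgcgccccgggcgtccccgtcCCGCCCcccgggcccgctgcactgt
Prkaa1: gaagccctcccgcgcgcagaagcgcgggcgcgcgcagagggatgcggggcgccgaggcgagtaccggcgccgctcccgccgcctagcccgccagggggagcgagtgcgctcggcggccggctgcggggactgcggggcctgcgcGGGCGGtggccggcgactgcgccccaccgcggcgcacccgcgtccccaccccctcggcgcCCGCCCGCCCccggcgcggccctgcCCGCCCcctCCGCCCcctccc
GC boxes were the only matches in either, at 2 places in Prkaa2 and 5 in Prkaa1, 2 of which overlap. The GC content was 70% in Prkaa2 and 85.2% in Prkaa1. The GC box was present in 32.7% of 32851 promoters of this length, and in 8 of the 12 start sites of the 10 genes. The E-box, present in 6.02% of promoters, matched none of the 12. A match is a run of letters and not evidence that a factor binds.

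**Figure D1:**
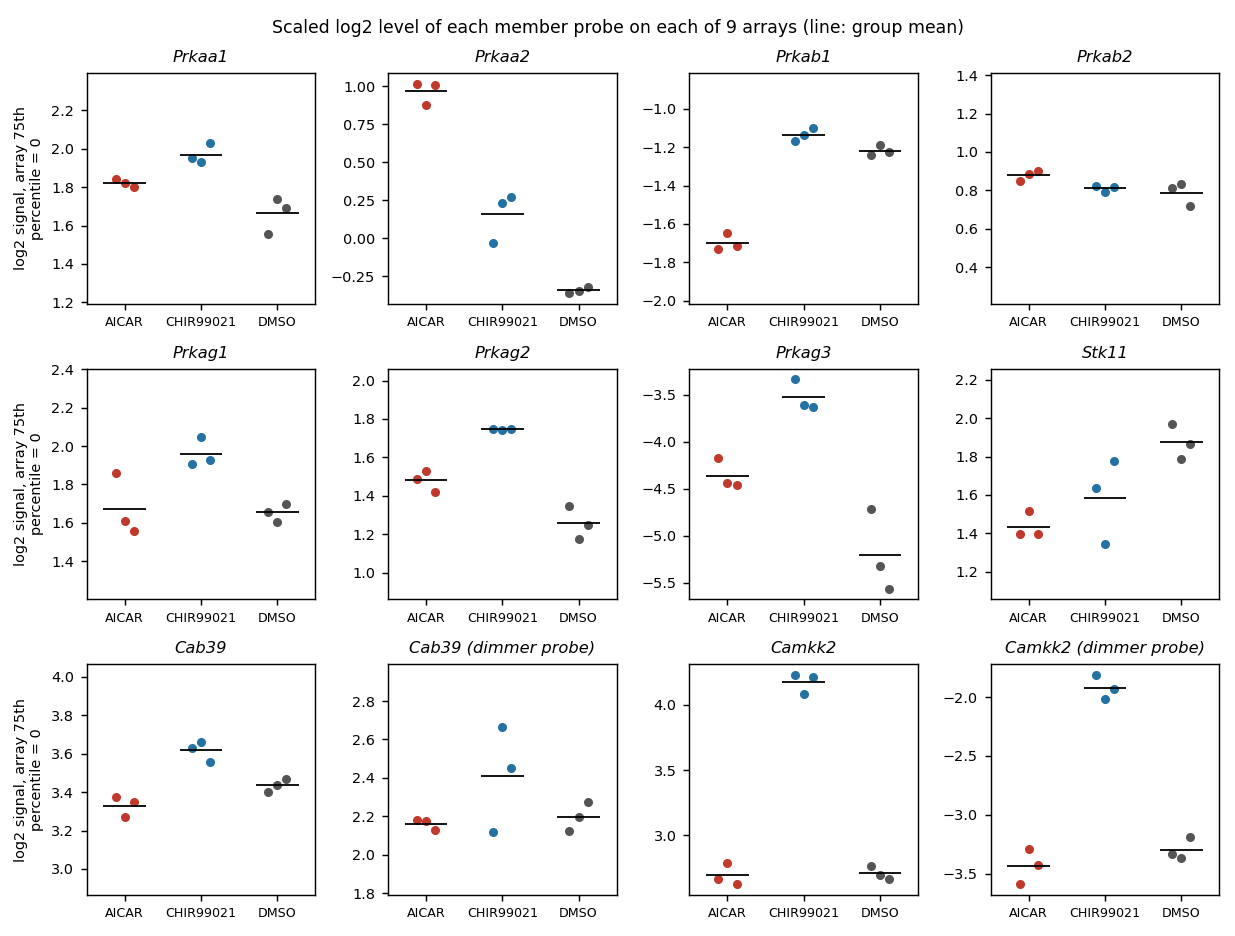
Scaled log2 signal (y axis, array 75th percentile set to 0, each panel with its own range) of the 12 probes on 9 arrays, by treatment. Points are arrays and lines are the means of 3. Prkaa2 separates all 3 treatments, with AICAR between 0.88 and 1.02 and DMSO between -0.36 and -0.32, and both Camkk2 probes separate CHIR99021 from the other groups.

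The β subunits hold the α and γ subunits together and bind glycogen. Prkab1 (β1) fell with AICAR. Its levels were -1.73, -1.65 and -1.72 with AICAR, -1.17, -1.14 and -1.10 with CHIR99021 and -1.24, -1.19 and -1.23 with DMSO. All AICAR arrays lay below all others. The change was -0.48 ± 0.05 against DMSO (adjusted p = 7.5e-05), so that DMSO cells had 1.39-fold the AICAR signal, and -0.56 ± 0.05 against CHIR99021 (adjusted p = 2.8e-05). CHIR99021 and DMSO differed by 0.08 ± 0.05, with a 95% interval of -0.03 to 0.19 (adjusted p = 0.190).

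Prkab2 (β2) was not called in any comparison. It measured 0.85, 0.88 and 0.90 with AICAR, 0.82, 0.79 and 0.82 with CHIR99021 and 0.81, 0.84 and 0.72 with DMSO, and the CHIR99021 and DMSO arrays overlapped. The 95% intervals were -0.02 to 0.20 for AICAR against DMSO (0.09 ± 0.05, adjusted p = 0.149) and -0.09 to 0.14 for CHIR99021 against DMSO (0.02 ± 0.05, adjusted p = 0.735). Within arrays, Prkab2 minus Prkab1 was 2.58, 2.53 and 2.62 with AICAR, 1.99, 1.93 and 1.92 with CHIR99021 and 2.05, 2.02 and 1.94 with DMSO. The shift was 0.57 ± 0.04 between AICAR and DMSO and 0.63 ± 0.04 between AICAR and CHIR99021, with the smallest possible exact permutation p of 0.1 in both (n = 3 each, adjusted p = 0.15). Between CHIR99021 and DMSO it was -0.06 ± 0.04 (exact permutation p = 0.2).

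The γ subunits carry the sites for AMP, ADP and ATP. Prkag2 (γ2) had levels of 1.49, 1.53 and 1.42 with AICAR, 1.75, 1.74 and 1.75 with CHIR99021 and 1.35, 1.17 and 1.25 with DMSO. The groups did not overlap and CHIR99021 was highest. Prkag2 rose 1.40-fold with CHIR99021, by 0.49 ± 0.06 (adjusted p = 0.000314), and 1.17-fold with AICAR, by 0.22 ± 0.06 (adjusted p = 0.0111). AICAR cells were 0.26 ± 0.06 below CHIR99021 cells (adjusted p = 0.00483). The AICAR call was lost with median scaling, at 0.13 (adjusted p = 0.133), and the difference between the treatments was lost with quantile normalisation, with the deposited matrix values and with spike-in scaling, where it was -0.07 (adjusted p = 0.618).

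Prkag1 (γ1), printed as 10 spots on each array, had levels of 1.86, 1.61 and 1.56 with AICAR, 1.90, 2.05 and 1.93 with CHIR99021 and 1.66, 1.61 and 1.70 with DMSO. AICAR and DMSO arrays overlapped and the CHIR99021 arrays lay above both. It rose with CHIR99021 by 0.31 ± 0.09 over DMSO (adjusted p = 0.0201), and AICAR cells were lower than CHIR99021 cells by a log2 change of -0.29 ± 0.09 (adjusted p = 0.0211). AICAR against DMSO gave 0.02 ± 0.09 (adjusted p = 0.855). The rise with CHIR99021 was lost without CHIR99021 replicate 2 (adjusted p = 0.0660), DMSO replicate 1 (adjusted p = 0.0522) or DMSO replicate 2 (adjusted p = 0.0647), and with median or spike-in scaling. The difference between the treatments was lost in 7 of 20 settings, including without AICAR replicate 2 (adjusted p = 0.0659), AICAR replicate 3 (adjusted p = 0.0658) or CHIR99021 replicate 2 (adjusted p = 0.0698).

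Prkag3 (γ3), the isoform known from skeletal muscle, was dim. Its unscaled processed signals were 34.1, 27.2 and 25.7 with AICAR, 57, 47.2 and 47.2 with CHIR99021 and 23.3, 15.2 and 12.9 with DMSO, on arrays whose median spot had 40.3 to 45. On the scaled log2 axis it measured -4.18, -4.44 and -4.46 with AICAR, -3.33, -3.61 and -3.63 with CHIR99021 and -4.72, -5.32 and -5.56 with DMSO. The order was CHIR99021, AICAR, DMSO, with no overlap. CHIR99021 cells were 3.20-fold above DMSO cells (1.68 ± 0.21, adjusted p = 0.00039), AICAR cells 1.79-fold above DMSO cells (0.84 ± 0.21, adjusted p = 0.00886) and AICAR cells lower than CHIR99021 cells (-0.84 ± 0.21, adjusted p = 0.00889). The sizes depend on the background correction, since the normexp correction with an offset gave 0.62, 0.22 and -0.40, all still called.

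Within arrays, Prkag2 minus Prkag1 shifted by 0.20 ± 0.10 between AICAR and DMSO and by 0.18 ± 0.06 between CHIR99021 and DMSO (exact permutation p = 0.2 and 0.1, n = 3 each), and by 0.02 ± 0.10 between AICAR and CHIR99021 (exact permutation p = 0.8). Prkag3 minus Prkag1 shifted by 0.82 ± 0.26 between AICAR and DMSO, by 1.37 ± 0.29 between CHIR99021 and DMSO and by -0.55 ± 0.13 between AICAR and CHIR99021, each with an exact permutation p of 0.1. With the normexp correction these 3 shifts were 0.24, 0.34 and -0.10.

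**Figure D2:**
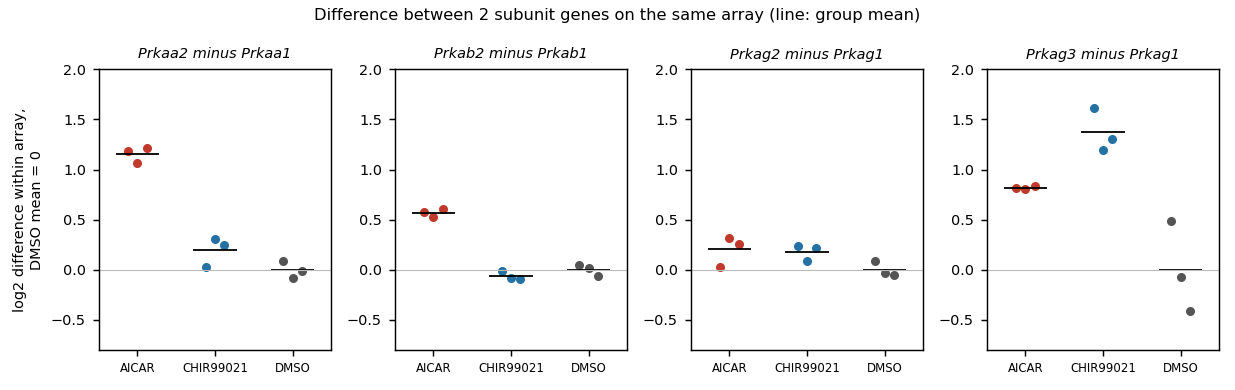
Difference in log2 signal between 2 subunit genes on the same array (y axis, mean of the DMSO arrays set to 0) for 4 pairs, by treatment. Points are arrays and lines are means of 3. Prkaa2 minus Prkaa1 and Prkab2 minus Prkab1 are raised on the AICAR arrays, by 1.15 and 0.57 over DMSO, and Prkag3 minus Prkag1 is raised on the arrays of both treatments.

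Camkk2, the calcium-dependent upstream kinase, rose with CHIR99021, and its change with AICAR did not pass the test. Its brighter probe had levels of 2.67, 2.79 and 2.63 with AICAR, 4.23, 4.08 and 4.22 with CHIR99021 and 2.77, 2.70 and 2.66 with DMSO. AICAR and DMSO arrays overlapped and the CHIR99021 arrays stood above all of them. The rise over DMSO was 2.76-fold (1.47 ± 0.07, SE, n = 3 each, adjusted p = 2.34e-06), and 4.22% of genes changed by more. AICAR cells were lower than CHIR99021 cells by a log2 change of -1.48 ± 0.07 (adjusted p = 1.19e-06). The AICAR value against DMSO was -0.01 ± 0.07 with a 95% interval of -0.17 to 0.14 (adjusted p = 0.875). The dimmer probe had -3.59, -3.29 and -3.43 with AICAR, -1.81, -2.01 and -1.93 with CHIR99021 and -3.34, -3.36 and -3.19 with DMSO. It gave the same pattern, with 1.38 ± 0.09 for CHIR99021 against DMSO (adjusted p = 1.73e-05), -1.52 ± 0.09 for AICAR against CHIR99021 (adjusted p = 5.23e-06) and -0.14 ± 0.09 for AICAR against DMSO (adjusted p = 0.240). With the normexp correction the dimmer probe's CHIR99021 change was 0.88, and it stayed called.

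Stk11, which encodes LKB1, the main upstream kinase of AMPK in most cells, was lower with AICAR than with DMSO. It had levels of 1.40, 1.52 and 1.40 with AICAR, 1.64, 1.34 and 1.78 with CHIR99021 and 1.97, 1.79 and 1.87 with DMSO. All arrays of both treatments lay below the DMSO arrays and overlapped with each other, with CHIR99021 replicate 2 the lowest of all 9. The fall with AICAR was -0.44 ± 0.11 (adjusted p = 0.00995), so that DMSO cells had 1.36-fold the AICAR signal. With spike-in scaling it was -0.31 and no longer called (adjusted p = 0.0990). CHIR99021 against DMSO was -0.29 ± 0.11 and missed the threshold (adjusted p = 0.0645), though it was called in 6 of 20 settings, including without CHIR99021 replicate 3 (-0.38, adjusted p = 0.0243). AICAR and CHIR99021 differed by -0.15 ± 0.11 with a 95% interval of -0.41 to 0.11 (adjusted p = 0.275), a difference that reached -0.27 and was called without CHIR99021 replicate 2 (adjusted p = 0.0269).

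Cab39 encodes MO25α, which locks LKB1 and STRAD in an active complex. Its brighter probe had levels of 3.37, 3.27 and 3.35 with AICAR, 3.63, 3.66 and 3.56 with CHIR99021 and 3.40, 3.44 and 3.47 with DMSO. The groups did not overlap, with CHIR99021 highest. AICAR cells were lower than CHIR99021 cells (-0.29 ± 0.05, adjusted p = 0.00188), a call lost with quantile normalisation, the deposited matrix values and spike-in scaling. CHIR99021 cells were 0.18 ± 0.05 above DMSO cells (adjusted p = 0.0223), but this was lost in 11 of 20 settings, among them without CHIR99021 replicate 1 (adjusted p = 0.0651) or 2 (adjusted p = 0.0727), without DMSO replicate 1 (adjusted p = 0.0723) or 2 (adjusted p = 0.0604), and with the replicate number as a block (adjusted p = 0.0585). AICAR against DMSO was -0.11 ± 0.05 (adjusted p = 0.117). The dimmer probe gave -0.04 ± 0.12 for AICAR against DMSO, 0.21 ± 0.12 for CHIR99021 against DMSO (adjusted p = 0.196) and -0.25 ± 0.12 for AICAR against CHIR99021 (adjusted p = 0.120). Without CHIR99021 replicate 1 the last 2 were 0.36 (adjusted p = 0.0129) and -0.39 (adjusted p = 0.00598), both called.

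The upstream sequences of the 2 kinases are set side by side because one rose with CHIR99021 and the other fell with AICAR. They follow the same conventions, for Camkk2 at chr5:122779411-122779660 on the minus strand and for Stk11 at chr10:80115545-80115794 on the plus strand.
Camkk2: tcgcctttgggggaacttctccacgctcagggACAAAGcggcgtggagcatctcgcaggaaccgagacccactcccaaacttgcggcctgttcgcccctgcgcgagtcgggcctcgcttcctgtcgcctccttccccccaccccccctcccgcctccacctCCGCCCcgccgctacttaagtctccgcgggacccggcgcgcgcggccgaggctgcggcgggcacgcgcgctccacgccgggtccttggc
Stk11: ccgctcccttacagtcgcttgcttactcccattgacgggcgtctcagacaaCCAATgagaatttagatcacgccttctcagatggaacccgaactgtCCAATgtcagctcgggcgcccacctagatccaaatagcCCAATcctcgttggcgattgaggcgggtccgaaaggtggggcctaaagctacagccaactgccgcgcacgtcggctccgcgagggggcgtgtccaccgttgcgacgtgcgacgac
The Camkk2 stretch holds 1 match to the TCF/LEF core CTTTGT, on the opposite strand 218 bases before the start, and 1 GC box. TCF and LEF are the DNA-binding partners of β-catenin, and this core was present in 16.5% of all promoters and in 1 of the 12 member start sites. The other TCF/LEF core, CTTTGA, was present in 13.8% of promoters and in 1 member start site, that of Prkag1. The Stk11 stretch holds no GC box and 3 CCAAT boxes, a motif present in 33.8% of promoters and in 4 of the 12 start sites. The Stk11 stretch had a GC content of 59.6% and the Camkk2 stretch of 72.4%.

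**Figure D3:**
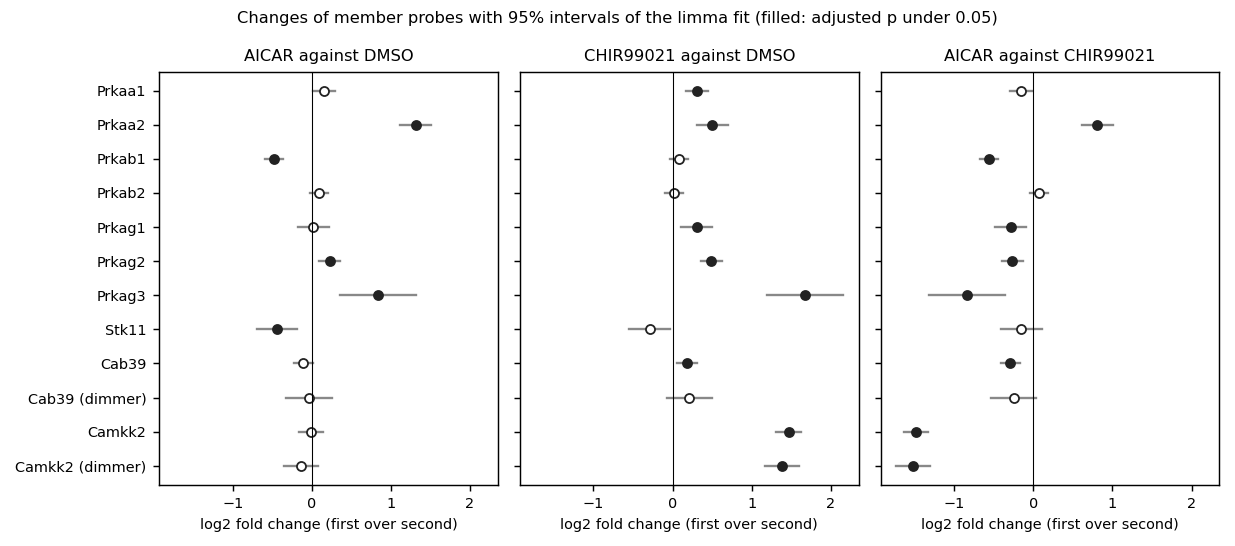
Log2 change of each of the 12 probes in the 3 comparisons (x axis, first group over second), with bars for the 95% interval of the limma fit. Filled points have an adjusted p under 0.05. Prkaa2 is furthest right in AICAR against DMSO at 1.31, and Prkag3 and Camkk2 are furthest right in CHIR99021 against DMSO at 1.68 and 1.47.

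Counted by brightest probe, AICAR changed 5 of the 10 genes against DMSO. Prkaa2, Prkag2 and Prkag3 were higher and Prkab1 and Stk11 lower. Of all 16089 genes, 64.2% were called in this comparison, 31.5% higher and 32.7% lower, so the members' count was not above that background. The median change of the 10 was 0.06, against -0.0010 for all genes. One member, Prkaa2, changed 2-fold or more, as did 12.2% of all genes. With spike-in scaling the members called lower numbered 1, Prkab1.

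CHIR99021 changed 7 of the 10 genes against DMSO, all of them higher, where 52.5% of all genes were called, 28.2% higher and 24.3% lower. The 7 were Prkaa1, Prkaa2, Prkag1, Prkag2, Prkag3, Cab39 and Camkk2, and no member was called lower. The median change of the 10 was 0.31, against 0.03 for all genes. Prkag3 and Camkk2 changed 2-fold or more, as did 8.89% of genes. With spike-in scaling 4 members were called higher, and under 6 alternatives Stk11 joined as 1 member called lower.

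AICAR against CHIR99021 called Prkaa2 higher and Prkab1, Prkag1, Prkag2, Prkag3, Cab39 and Camkk2 lower, 7 of the 10 genes. Of all genes, 65.7% were called, 28.9% higher and 36.9% lower. Camkk2 alone of the 10 changed 2-fold or more, as did 14.8% of genes. The median change of the 10 was -0.28, against -0.07 for all genes. With quantile normalisation or the deposited matrix values, 2 members were called higher, with Prkab2 added, and 3 lower. With spike-in scaling 3 were called lower. The comparisons with DMSO share the same 3 DMSO arrays, so their values are set side by side and not as independent results.

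The sign of small changes rests on the scaling. Over all probes the median change was 0.01 between AICAR and DMSO and -0.10 between AICAR and CHIR99021, and it was 0.14 and 0.09 with spike-in scaling. The share of called probes that were higher was 49.2% for AICAR against DMSO, 39.1% with median scaling and 64% with spike-in scaling. It was 57.8% for CHIR99021 against DMSO and 45.7% with spike-in scaling, and 40.5% for AICAR against CHIR99021 and 64.8% with spike-in scaling. The spike-ins themselves varied, with mean log2 signals of 13.06, 13.22 and 12.89 on the AICAR arrays and 13.18, 13.25 and 13.26 on the DMSO arrays. For Prkaa1 in AICAR against DMSO the SE was 0.06, and 0.10 with spike-in scaling. Prkaa2, Prkab1, Prkag3 and Camkk2 kept their direction and call under each scaling wherever they were called.

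Camkk2 had the largest moderated F over the 3 groups of any member probe, 330. Genes whose brightest probe tracked it most closely over the 9 arrays included Ift74 (Pearson r = 0.997), Epha7 (0.997), Ddah1 (0.996) and Btla (0.996). The arrays fall into 3 treatments, with the CHIR99021 arrays apart, so these coefficients largely restate that difference between groups. Epha7 was 1.21 higher with CHIR99021 than with DMSO on the log2 scale and Ift74 0.42 higher. Btla was at least 55.2-fold higher, being above background with CHIR99021 only.

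Genes around AMPK were counted by list. Among 13 other upstream kinases, partners and phosphatases, 5 were higher and 6 lower with AICAR than with DMSO, and 2 higher and 2 lower with CHIR99021 than with DMSO, beside 64.2% and 52.5% of all genes called. Their median changes were 0.05 and 0.03. Ppp1r3c, a glycogen-targeting subunit of protein phosphatase 1, rose by 3.23 ± 0.11 with AICAR (adjusted p = 4.61e-07) and by 1.55 ± 0.11 with CHIR99021 (adjusted p = 2.34e-05). Ppm1e, a phosphatase that can dephosphorylate AMPK, rose by 0.92 ± 0.08 with AICAR and fell with CHIR99021 (-0.46 ± 0.08). Map3k7, which encodes TAK1, fell with AICAR (-0.57 ± 0.05) at its brightest of 3 probes, which ranged to -0.11. Stradb, an LKB1 partner, rose with AICAR by 0.57 ± 0.07 at 1 of 2 probes, and the other gave -0.16. With spike-in scaling, quantile normalisation or the matrix values, 3 of these genes and not 6 were called lower with AICAR. Without CHIR99021 replicate 1 or 3, or DMSO replicate 1 or 2, 1 gene and not 2 was called higher with CHIR99021, as with each other scaling, the matrix values and the replicate block. The 2 called lower with CHIR99021 became 4 with quantile normalisation, median scaling or the matrix values, and 1 with spike-in scaling or the mean of each gene's probes.

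Of the 13 AMPK-related kinases, which LKB1 also phosphorylates in most cases, 2 were higher and 5 lower with AICAR and 2 higher and 4 lower with CHIR99021, with medians of -0.05 and -0.06. Over all genes 64.2% and 52.5% were called, so these counts were not above the background. Nuak2 rose with both, by 1.32 ± 0.10 and 0.53 ± 0.10. Nuak1 rose with AICAR by 1.12 ± 0.21 (adjusted p = 0.00235) and was at least 2.37-fold higher with AICAR than with CHIR99021, where it was above background on no array. With DMSO, Nuak1 had a scaled log2 mean of -5.66 and was above background on 2 of 3 arrays. The size of its rise over DMSO is therefore uncertain. Brsk1 was lower with CHIR99021 than with DMSO (-0.90 ± 0.10). The 2 probes each of Brsk2 and Sik2 disagreed, Sik2 giving -0.64 and 0.37 for AICAR against DMSO and Brsk2 -1.08 and 0.32 for CHIR99021 against DMSO. With spike-in scaling 3 of the list and not 5 were called lower with AICAR, and 1 higher and 2 lower with CHIR99021. With the filter on all 9 arrays 1 and not 2 was called higher with AICAR. Without CHIR99021 replicate 1, 3 and not 5 were called higher for AICAR against CHIR99021.

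Of 30 tested among 32 known AMPK substrates, 12 were higher and 5 lower with AICAR and 8 higher and 9 lower with CHIR99021, with medians of 0.11 and 0.04. These counts of 17 of 30 in each comparison lay near the shares over all genes, 64.2% and 52.5%. Txnip, an arrestin-like inhibitor of glucose uptake, rose by 2.12 ± 0.06 with AICAR and fell with CHIR99021 (-1.21 ± 0.06). Atg9a, an autophagy membrane protein, rose by 1.39 ± 0.11 with AICAR, and so did the transcription factor Foxo3 by 0.96 ± 0.15 and the glycolytic activator Pfkfb3 by 0.95 ± 0.07. Pfkfb3 also rose with CHIR99021, by 0.54 ± 0.07 at its brighter probe, and the other gave 0.17. Gys1, glycogen synthase, fell with CHIR99021 (-0.93 ± 0.09) and gave 0.02 ± 0.09 with AICAR. With spike-in scaling 1 substrate gene and not 5 was called lower with AICAR. Without CHIR99021 replicate 1 or replicate 3, the substrates called lower with CHIR99021 numbered 5 or 4 in place of 9.

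Of 18 tested genes that carry AICAR into the cell or handle ZMP and related purines, 1 was higher and 9 lower with AICAR (median -0.22), and 4 were higher and 7 lower with CHIR99021 (median 0.08). Over all genes 31.5% were higher and 32.7% lower with AICAR, and 28.2% higher and 24.3% lower with CHIR99021. With spike-in scaling the 9 became 5 and the 4 called higher with CHIR99021 became 2. The single gene called higher with AICAR became 2 with quantile normalisation, the matrix values or without DMSO replicate 3. Adk, the adenosine kinase that makes ZMP, fell with both treatments (-0.70 ± 0.06 and -0.23 ± 0.06). Nt5e, the ecto-5′-nucleotidase, fell with AICAR (-0.74 ± 0.08) and rose by 1.39 ± 0.08 with CHIR99021. The AMP deaminase Ampd2 fell with AICAR (-0.56 ± 0.06) and with CHIR99021 (-0.30 ± 0.06). Ampd3 fell with CHIR99021 (-1.40 ± 0.29) and was not called with AICAR (0.36 ± 0.29). The nucleoside transporter Slc28a3 rose by 0.81 ± 0.11 with AICAR and by 1.62 ± 0.11 with CHIR99021.

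Of 23 genes of mTORC1 and nutrient sensing, 8 were higher and 8 lower with AICAR (median -0.05), and 6 higher and 4 lower with CHIR99021 (median 0.05), beside 64.2% and 52.5% of all genes called. Ddit4, an inhibitor of mTORC1 known as REDD1, rose by 1.78 ± 0.16 with AICAR (adjusted p = 4.74e-05). The Rag GTPase gene Rragb fell with AICAR (-0.79 ± 0.07), as did Sesn2 (-0.57 ± 0.07) and Akt1s1 (-0.57 ± 0.15). Sesn2 fell with CHIR99021 too (-0.44 ± 0.07). Rragd rose by 1.46 ± 0.09 with CHIR99021 and fell with AICAR (-0.26 ± 0.09). Fnip1 rose with both, by 0.53 ± 0.08 with CHIR99021 and by 0.31 ± 0.08 with AICAR. With spike-in scaling 4 of the list and not 8 were called lower with AICAR, and 7 settings, among them leaving out CHIR99021 replicate 1 or any 1 DMSO array, gave 2 called lower with CHIR99021 in place of 4.

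**Figure D4:**
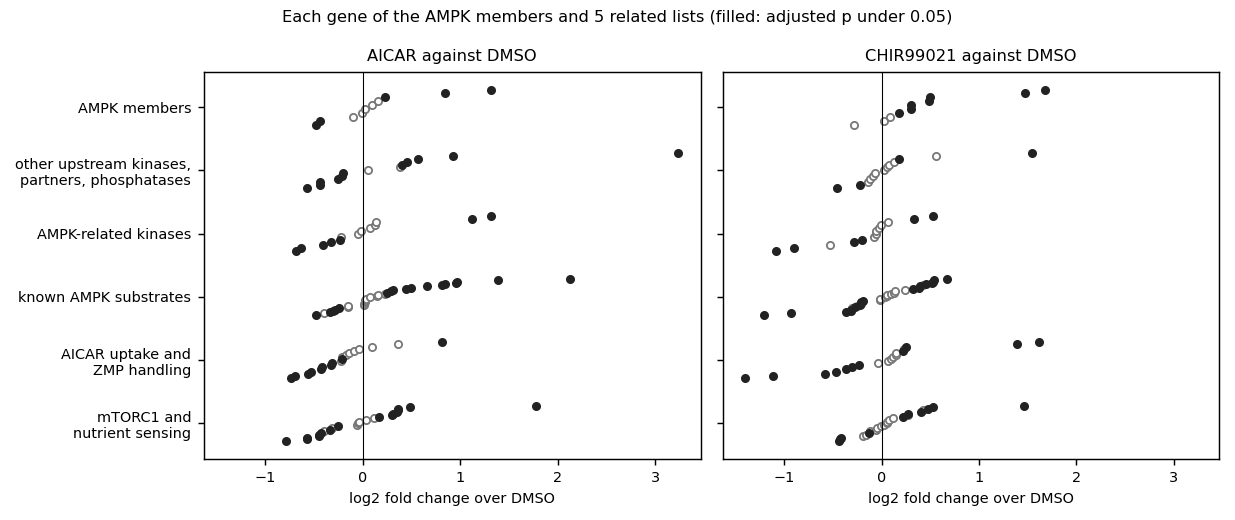
Log2 change over DMSO (x axis) of each tested gene of the 10 AMPK genes and 5 related lists, at its brightest probe, for AICAR and for CHIR99021. Each point is a gene and filled points have an adjusted p under 0.05. The AMPK genes lie between -0.48 and 1.31 with AICAR, and Ppp1r3c at 3.23 is the rightmost point.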

How the data were processed

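Labelled RNA of 9 samples was hybridised to 9 single-colour (Cy3) Agilent arrays, 3 per treatment. Per the file headers, the deposited scanner files come from Agilent's Feature Extraction software, version 10.7.3.1 (10.7 in the submitters' processing notes), and give spot intensity on a linear scale as a processed signal. Its background correction was not examined. The deposited series matrix holds log2 values of the same arrays, whose centring is unstated, and served as an alternative only.

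Spots flagged as outliers (136 to 192 per array of 59305) were left out, spots of a probe averaged, and each array's 75th percentile of log2 signal subtracted. Probes well above background on at least 3 of 9 arrays were tested with limma 3.58.1 in R 4.3.3 (lmFit and eBayes, all 9 arrays, no block), with Benjamini-Hochberg adjustment over 37739 probes and a threshold of 0.05. A gene is given by its brightest probe, and members by all probes. Symbols came from probe accessions through RefSeq, for 27235 of 55681 probes. The number of arrays limits the precision. On simulated data, log2 changes of 0.5 and of 1 were each planted in 100 of 37644 probes. The fit called 45% and 73% of them for AICAR against DMSO, 35% and 70% for CHIR99021 against DMSO and 53% and 74% for AICAR against CHIR99021. False calls among the other probes numbered 8, 7 and 9. The real comparisons called 17999 to 22189 probes, so the adjusted threshold was less strict there. The simulated rates therefore do not carry over to them.

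The members, lists and tests were chosen with earlier results of these data known. Besides the members, the rule named from each list up to 4 called genes with the largest change for AICAR and 2 for CHIR99021, some check genes, and the 5 genes most correlated with the member probe of largest F. Marker lists are given mainly by their sums. One gene that the rule named is not reported here. Same-numbered samples of different treatments did not deviate together (correlations of -0.05 to 0.08). Such correlations cannot show whether samples were prepared in matched sets. The main tests did not pair them, and the replicate number as a block was run as an alternative. Alternatives changed the scaling, background, filter, probe rule, block and arrays used. A normexp correction on the mean signal could not be run, since these files hold none, and median signals with an offset of 50 were used after seeing the files.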

Additional observations from a re-analysis of the deposited data

How the results depend on the processing

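Across 20 alternatives per comparison, or 18 for the dimmer probes, 629 of the member changes kept direction and call, 32 lost their call, 22 gained one and 25 changed sign. Several alternatives cannot change a member's log2 value, among them the filters, the replicate block and leaving out an array of the group not compared. In those only the call could move, so the number that kept direction overstates how much was tried. The members called lower for CHIR99021 against DMSO numbered 1 and not 0 under quantile normalisation, median scaling, the series matrix values, normexp and a filter on all 9 arrays, and 0 to 1 when each array was left out. For AICAR against CHIR99021, quantile normalisation and the matrix values gave 2 higher and 3 lower. Spike-in scaling gave 1 lower for AICAR against DMSO, 4 higher for CHIR99021 against DMSO and 3 lower for AICAR against CHIR99021. The cause was not tested.

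Prkab2 minus Prkab1 was 0.66 under quantile normalisation, 0.65 with matrix values and 0.45 with normexp for AICAR against DMSO, and 0.73, 0.71 and 0.51 for AICAR against CHIR99021. Prkag3 minus Prkag1 for AICAR against CHIR99021 was -0.72, -0.71 and -0.10. With normexp it was 0.24 for AICAR against DMSO and 0.34 for CHIR99021 against DMSO, and Prkaa2 minus Prkaa1 was 1.00 for AICAR against DMSO.

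The changes of sign were all in values that were not called. For AICAR against DMSO, Cab39 was 0.0275 with quantile normalisation, 0.0244 with spike-in scaling and 0.0276 with matrix values, and Camkk2 0.10, 0.12 and 0.10. The dimmer Cab39 probe was 0.0607, 0.0941 and 0.063. With median scaling Prkab2 was -0.0057 and Prkag1 -0.0753, and with normexp Prkag1 was -0.0157. For CHIR99021 against DMSO, Prkab2 was -0.0362 with quantile normalisation, -0.0406 with median scaling, -0.043 with spike-in scaling, -0.0391 with matrix values and -0.0033 with normexp. With spike-in scaling Prkaa1 was 0.0474 and Stk11 0.0447 for AICAR against CHIR99021. Leaving out each array gave -0.0715 to 0.0792 for Prkag1, -0.061 to 0.0212 for Camkk2 and -0.0733 to 0.0018 for the dimmer Cab39 probe in AICAR against DMSO, and -0.0121 to 0.0464 for Prkab2 in CHIR99021 against DMSO.

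With the replicate number as a block, called probes numbered 21005 for AICAR against DMSO, 16483 for CHIR99021 against DMSO and 21162 for AICAR against CHIR99021, against 22122, 17999 and 22189 without it, and of the members only Cab39 for CHIR99021 against DMSO lost its call (0.18, adjusted p = 0.0585). Slide as a block was not run, since each slide holds 1 group. The changes of Prkag3 and of the dimmer Camkk2 probe, both well above background on all arrays, were smaller with normexp.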
